A study of Mus musculus with 6 samples.

Results

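The genes described here encode splicing factors of 4 families, the SR proteins (Srsf), the heterogeneous nuclear ribonucleoproteins (Hnrnp), the subunits of the SF3A and SF3B complexes (Sf3a and Sf3b) and the polypyrimidine tract binding proteins (Ptbp). They were chosen by symbol, with pseudogenes and genes under 10 counts over all libraries left out. Of 46095 genes in the count table, 44 matched, 1 pseudogene and Srsf12 (8 counts in all) were left out, and 42 remained, namely 10 Srsf, 20 Hnrnp, 9 Sf3 and 3 Ptbp genes. All 42 had enough counts to be tested.

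RNA-seq was performed on primary tubule epithelial cells of the kidney (PTECs) isolated from C57 mice at 10 weeks of age. Replicates 1, 2 and 4 were labelled VHL-KO and replicates 2, 3 and 4 were labelled VHL-KO;SETD2-KO, giving 3 libraries a group. Mice of both groups carried floxed VHL alleles and Cre recombinase under the promoter of Cdh16 (Ksp-Cre), which is active in renal tubule epithelium, and the VHL-KO;SETD2-KO mice carried floxed Setd2 alleles as well. By genotype, loss of VHL was therefore shared by all libraries. No library with intact VHL or with loss of Setd2 alone was analysed here, and cells in which Cdh16 is not active keep both genes.

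Splicing removes introns from nascent RNA. SR proteins bind exons through RNA recognition motifs and promote their inclusion, hnRNP proteins often bind nearby elements and oppose inclusion, and the SF3A and SF3B complexes belong to the U2 particle that recognises the branch point. PTB proteins bind pyrimidine-rich tracts and mostly repress exons, and PTBP1 limits its paralogue PTBP2 by repressing an exon of it. SETD2 places the trimethyl mark on lysine 36 of histone H3, and the reader MORF4L1 (MRG15) is known to recruit PTB proteins to marked chromatin. These factors are broadly expressed, in kidney epithelium as elsewhere. Gene counts give the amount of RNA assigned to each factor and not the exons it selects, nor whether its own transcripts carry the premature stop codons by which many Srsf and Hnrnp genes limit themselves.

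Genes that were high and genes that were low in 1 of the 6 libraries, VHL-KO replicate 4, differed in base composition, as described further on. The first 120 bases of the coding sequence are shown for 4 genes, 2 subunits of SF3B and 2 PTB paralogues, because members of both families lay on opposite sides of the other libraries there. They were read 5′ to 3′ from the longest protein-coding transcript of GENCODE M21 on GRCm38, with G and C in capitals.

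Sf3b5: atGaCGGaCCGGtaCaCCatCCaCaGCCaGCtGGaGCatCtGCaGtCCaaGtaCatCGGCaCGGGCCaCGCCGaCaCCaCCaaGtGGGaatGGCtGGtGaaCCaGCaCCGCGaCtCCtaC
Sf3b1: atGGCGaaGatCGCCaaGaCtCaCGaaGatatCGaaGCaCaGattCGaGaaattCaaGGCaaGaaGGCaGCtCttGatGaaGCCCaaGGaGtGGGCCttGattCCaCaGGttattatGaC
Ptbp1: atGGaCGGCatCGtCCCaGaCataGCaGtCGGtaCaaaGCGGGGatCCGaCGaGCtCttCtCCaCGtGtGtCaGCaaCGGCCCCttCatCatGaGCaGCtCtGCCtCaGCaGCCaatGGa
Ptbp3: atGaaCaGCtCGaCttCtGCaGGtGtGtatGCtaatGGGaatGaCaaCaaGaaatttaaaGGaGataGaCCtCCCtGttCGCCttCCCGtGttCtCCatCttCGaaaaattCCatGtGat

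In these stretches 74 of 120 bases were G or C in Sf3b5 and 57 in Sf3b1. The number was 70 in Ptbp1 and 52 in Ptbp3. Over the whole coding sequence the GC content was 61.3% for Sf3b5 (261 bases; gene at chr10:13005343-13009183, plus strand) and 44.3% for Sf3b1 (3915 bases; chr1:54985169-55027481, minus strand). It was 56.7% for Ptbp1 (1590 bases; chr10:79854427-79864771, plus strand) and 46.6% for Ptbp3 (1572 bases; chr4:59471868-59549364, minus strand). Over the whole longest transcript, Sf3b5 (3841 bases) and Sf3b1 were closer, with a GC content of 45.5% and 42.1%. Ptbp1 and Ptbp3 had 53.7% and 38.9%.

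The libraries held 11168552 to 17883466 counts, and 3 counts, taken as the smallest detectable signal, corresponded to 0.168 to 0.269 CPM (counts scaled to the library total, with TMM factors for all values below), a limit that covers counting error only. The library labelled VHL-KO replicate 4 stood apart, with 11.3% of its counts from mitochondrial genes against 25.9% to 36.4% in the other 5. Setd2, the targeted gene, gave 132 to 1179 counts in the VHL-KO group and 1019 to 1499 in the VHL-KO;SETD2-KO group. A lower level of Setd2 was therefore not seen in the libraries said to lack it (log2 fold change 0.52, SE 0.64, adjusted p = 0.787, edgeR). Without VHL-KO replicate 4 the log2 fold change of Setd2 was 0.052. The gene counts alone do not bear out the label, so every direction below is between libraries as labelled. By Western blot, RT-qPCR and staining, the paper reported less SETD2 and less of its histone mark in renal tubules. Vhl, deleted by genotype in both groups, gave 139 to 276 counts in the VHL-KO group and 189 to 317 in the VHL-KO;SETD2-KO group, with no library of intact VHL to compare. The counts cover the whole gene, and reads of a deleted exon cannot be told from the rest. Markers of tubule segments were present in every library, together with markers of podocytes and endothelium, and 5 T cell markers summed to 2.42 to 7.11 and 2.70 to 3.13 CPM. The summed level of 10 proximal tubule markers was 15289 to 25423 CPM under the VHL-KO label and 6541 to 9495 CPM under the VHL-KO;SETD2-KO label, without overlap. The sums of the other lists overlapped between the groups. For these, 5 podocyte markers summed to 1437 to 2089 and 1971 to 4836 CPM, and 6 endothelial markers to 1473 to 2285 and 1779 to 5306 CPM. No marker of these 3 lists was at or under the floor in every library. The ranges were 1246 to 4780 and 1579 to 4334 CPM for thick limb and distal tubule, 51.5 to 443 and 75.8 to 214 CPM for collecting duct, 141 to 720 and 135 to 303 CPM for macrophages, 76.9 to 415 and 81.2 to 196 CPM for stroma, 534 to 1884 and 553 to 600.1 CPM for red blood cells, and 31.1 to 62.5 and 45.3 to 77.3 CPM for proliferating cells. The part of these cell types in the results was not tested, and in such bulk samples fewer cells of a type and less RNA per cell cannot be told apart.

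The first question was whether RNA of the splicing factor genes differed between VHL-KO;SETD2-KO and VHL-KO libraries. No gene of the 42 passed the test. Of all 14611 genes tested, 2.65% were called higher and 4.68% lower (unadjusted p under 0.05, fold change 1.5 or more) with edgeR's quasi-likelihood test, and the splicing factors contributed 0 calls in either direction. The count was also 0 at an unadjusted p under 0.05 without a limit on the fold change (background 7.33%) and 0 at an adjusted p under 0.05 (background 0% higher and 0.00684% lower). DESeq2 gave 0 calls as well, where 2.86% of all genes were called higher and 7.75% lower at the unadjusted p, and 0.00684% and 0.342% at the adjusted p. With limma-voom the number was again 0, beside 2.90% and 3.33% at the unadjusted p and 0% and 0.00684% at the adjusted p. The lowest adjusted p among the 42 was 0.625 (edgeR). The standard error of the log2 fold change was 0.34 to 0.85 over the 42 genes, and 0.12 to 0.33 when VHL-KO replicate 4 was left out.

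Below the threshold, 34 of the 42 genes had a positive log2 fold change (VHL-KO;SETD2-KO over VHL-KO) and 8 a negative one. The median was 0.44, against 0.0095 over all genes tested, and the values ran from -1.33 for Sf3b5 to 0.96 for Ptbp3. The families differed in this respect, since all 20 Hnrnp genes and 9 of 10 Srsf genes had positive values, with medians of 0.53 and 0.43, whereas 6 of 9 Sf3 genes had negative ones, with a median of -0.26. When VHL-KO replicate 4 was left out, the median over the 42 genes was 0.11, against 0.036 over the 15000 genes then tested, and no family median exceeded 0.14. The median over the 42 genes was 0.75 without VHL-KO replicate 1 and 0.73 without VHL-KO replicate 2. Without VHL-KO replicate 4, 0 genes were called (background 8.29% higher and 7.14% lower), and 34 genes again had positive and 8 negative values, but 10 of the 42 had changed sign. The plot of fold changes with and without this library shows the same narrowing in each family.

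**Figure D1:**
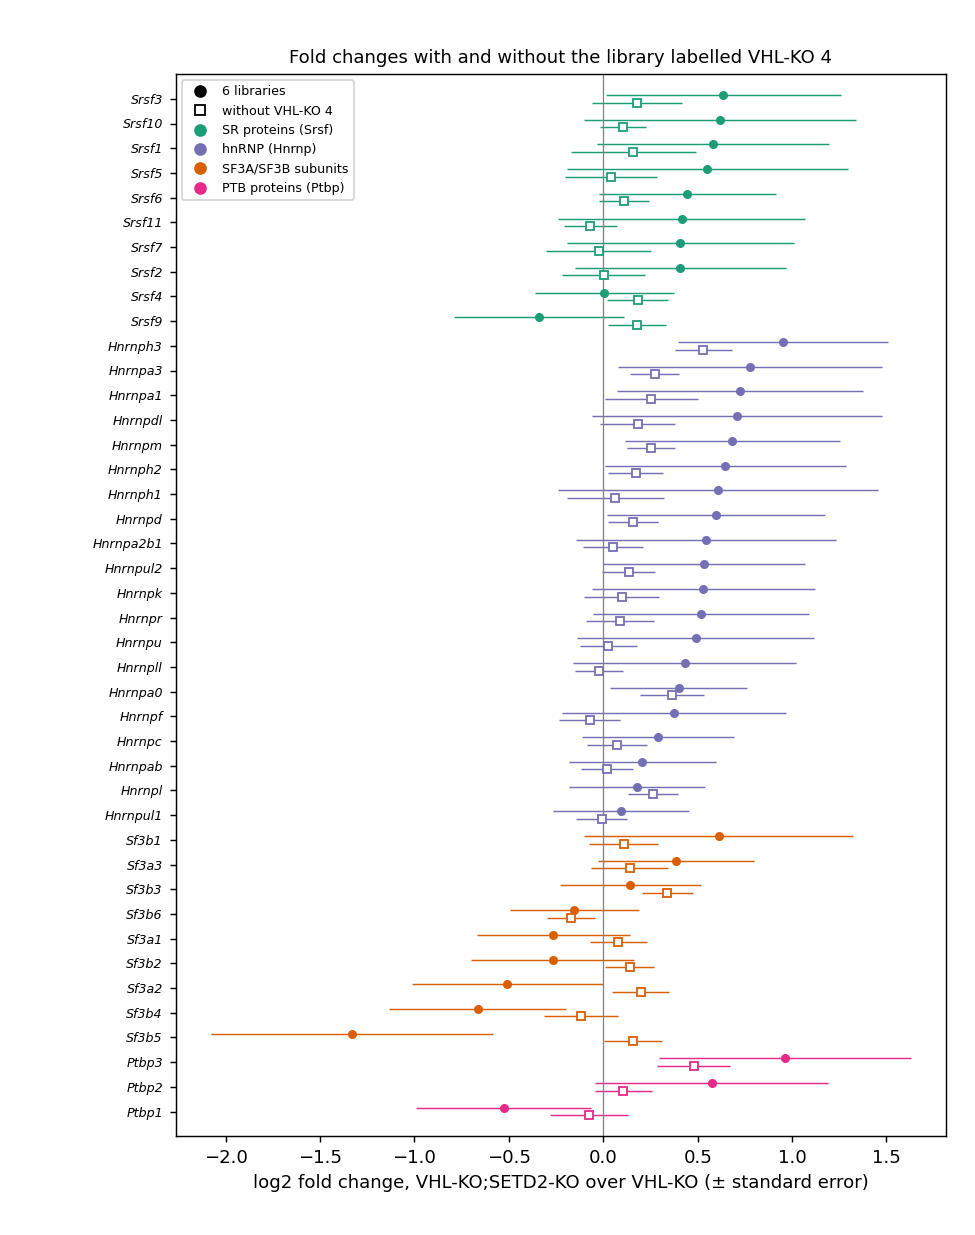
Log2 fold change of each splicing factor gene in VHL-KO;SETD2-KO relative to VHL-KO libraries, from edgeR. Filled circles are fits to 6 libraries and open squares fits that leave out VHL-KO replicate 4, with bars of 1 standard error, coloured by family. The circles span -1.33 to 0.96 and the squares -0.17 to 0.53.

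No overlap between the groups was seen for 7 genes with higher values under the VHL-KO;SETD2-KO label (16.7% of 42, background 9.62%) and for 1 gene, Sf3b6, with lower values (2.38%, background 11.0%). The 7 were Ptbp3, Srsf6, Hnrnpa0, Hnrnpa3, Hnrnph3, Hnrnpm and Hnrnpul2. Leaving out VHL-KO replicate 4 gave 11 higher and 1 lower (background 20.1% and 21.4%), and leaving out VHL-KO;SETD2-KO replicate 3 gave 22 higher and 1 lower (background 20.2% and 18.9%).

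The library labelled VHL-KO replicate 4 set most of the spread. The 42 genes together held 0.169% of its counts and 0.394% to 0.559% of the counts of the others. Relative to the other 5 libraries, 31 genes were below all of them and 9 above all of them, where 41.7% and 40.0% of all genes tested lay below or above, and 2 genes fell within their range. The median difference in log2 CPM from the mean of the other 5 was -2.12 for the splicing factors and -0.029 for all genes tested. It ran from -3.97 for Hnrnph1 to 2.59 for Sf3b5. Across the other 5 libraries the same genes were steady, with a median range of 0.36 in log2 CPM (0.11 to 0.80 over the genes) against 0.80 for all genes tested. Within the VHL-KO;SETD2-KO group the median SD of log2 CPM was 0.16 for the splicing factors and 0.27 for all genes tested, whereas within the VHL-KO group it was 1.22 and 0.88. In these comparisons of spread the genes tested were not matched to the splicing factors for level.

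The families were not shifted alike in this library. Of the 20 Hnrnp genes 19 were below all other libraries and none above, and of the 10 Srsf genes 8 were below and 2 above. Of the 9 Sf3 genes 6 were above and 2 below, and of the Ptbp genes 1 was above and 2 below. The Hnrnp genes accordingly made up 36.7% of the splicing factor counts there and 56.8% to 58.9% in the other libraries, while the Sf3 genes made up 31.9% and 12.3% to 13.4%. The 3 Ptbp genes made up 17.6% there and 6.69% to 7.79% in the others.

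**Figure D2:**
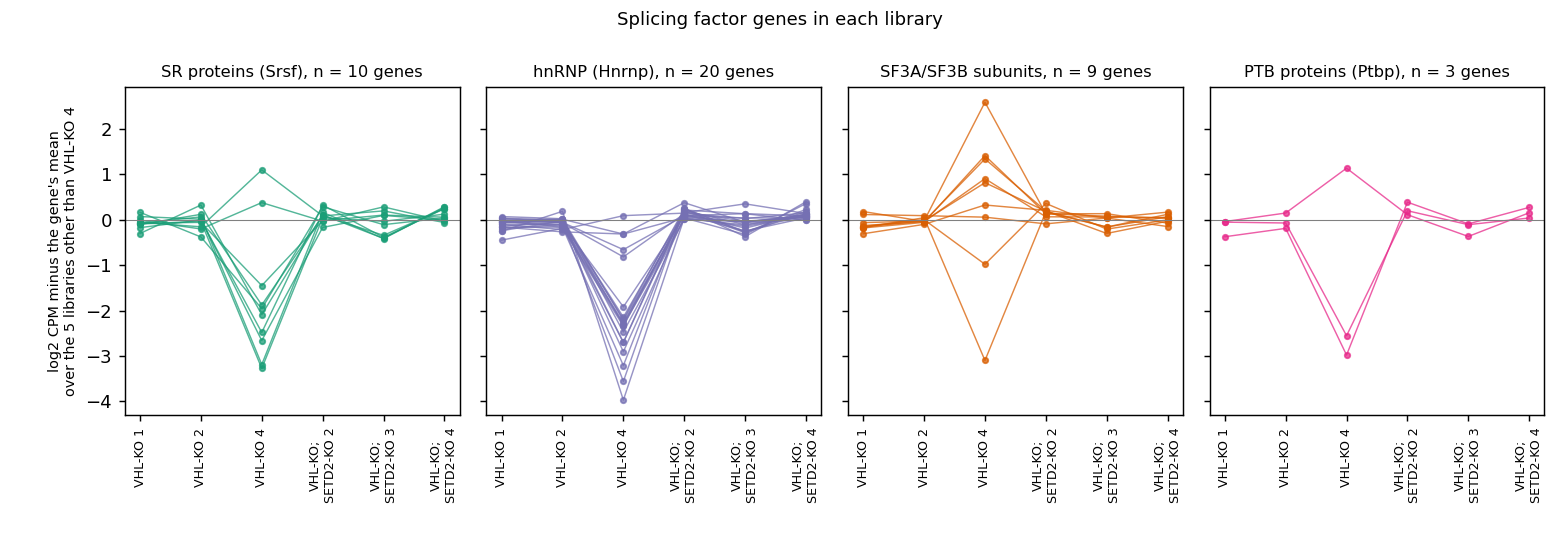
Log2 CPM of each splicing factor gene in each library (x axis), as the difference from its mean over the 5 libraries other than VHL-KO replicate 4. Each line joins the values of 1 gene and the panels are the 4 families. The 5 other libraries stay between -0.45 and 0.40, and VHL-KO replicate 4 runs from -3.97 to 2.59.

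Genes above and below in this library differed in base composition. The coding GC content had a median of 56.7% over the 11 genes with a higher value than the mean of the other 5 libraries and 49.7% over the 31 with a lower value. Across the 42 genes Spearman's rho between coding GC content and the difference in log2 CPM was 0.68, and over the 12818 genes tested that have a transcript in GENCODE it was 0.65. With the GC content of the whole transcript rho was 0.67 over the 42 genes in this library and -0.29 to 0.15 in each of the others. Genes are not independent replicates, and all of these points share 1 library. The median coding GC content of the splicing factors, 50.6%, was below that of the genes tested, 53.0%. Single genes departed from the relation. Hnrnpa0, with the highest coding GC content of the 42 genes (71.8%), had a difference of -0.31. Srsf2 and Srsf1, with 68.2% and 58.5%, had differences of -1.88 and -1.96. Sf3b6, with 42.6% coding GC, had one of 0.056. Sf3b5, with the largest positive difference, had 45.5% GC over its whole transcript. The part of base composition, of RNA quality or of the mouse in this library was not tested.

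**Figure D3:**
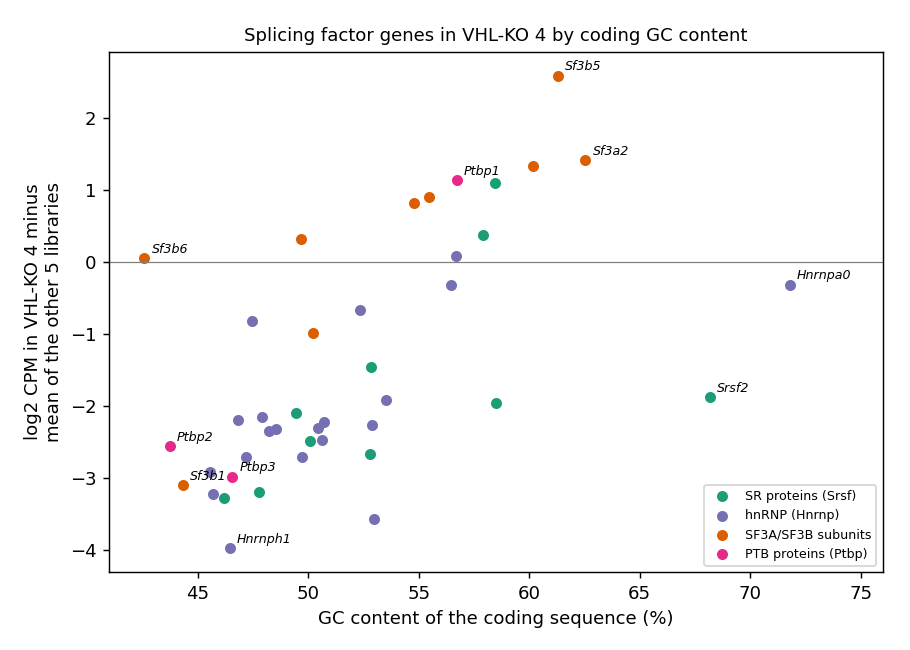
GC content of the coding sequence (x axis, percent) against the difference in log2 CPM between VHL-KO replicate 4 and the mean of the other 5 libraries (y axis), 1 point per splicing factor gene, coloured by family. GC-rich genes such as Sf3b5 and Ptbp1 lie above 0 and GC-poor genes such as Sf3b1 and Ptbp2 below it. Hnrnpa0, Srsf2 and Srsf1 are GC-rich genes that lie below 0.

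Among the SR proteins, Srsf5 had the highest level per length, with 158 CPM per kb of its longest transcript as a mean over the libraries. Its values were 272, 300 and 31.4 CPM in VHL-KO replicates 1, 2 and 4 and 322, 216 and 347 CPM in VHL-KO;SETD2-KO replicates 2, 3 and 4. The groups overlapped, with the lowest value in VHL-KO replicate 4. Srsf2, which activates exon inclusion and controls its own RNA, followed at 97.9 CPM per kb, with 195, 228 and 57.0 CPM against 223, 165 and 248 CPM. For this gene too the lowest library was VHL-KO replicate 4.

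Srsf3, the smallest of the SR proteins, had the largest positive fold change of its family. Its values were 33.4, 37.6 and 6.64 CPM under the VHL-KO label and 47.2, 28.8 and 44.7 CPM in the VHL-KO;SETD2-KO group. The log2 fold change was 0.64 (SE 0.62, adjusted p = 0.742, edgeR) and 0.18 (SE 0.24) without VHL-KO replicate 4, a difference within the spread of the groups. Srsf6 was higher in each VHL-KO;SETD2-KO library, with 124, 126 and 47.9 CPM against 129, 141 and 136 CPM, but its log2 fold change of 0.45 (SE 0.47) was 0.11 (SE 0.13) without that library.

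Srsf9 was the SR gene with the negative fold change. It had 17.2, 16.1 and 38.5 CPM under the VHL-KO label and 19.0, 20.6 and 17.2 CPM under the VHL-KO;SETD2-KO label. Here the high value was again that of VHL-KO replicate 4, and the log2 fold change of -0.34 (SE 0.45, adjusted p = 0.801, edgeR) became 0.18 (SE 0.15) without it. Srsf4 was the other SR gene above all others in that library, at 49.8 CPM against 33.3 to 46.7 CPM. Srsf1, often taken as the prototype of the family, had few reads, with 8 to 76 counts and 0.748 to 4.04 CPM over the libraries. Its log2 fold change was 0.58 (SE 0.61), an error exceeded by genes with far more reads, such as Srsf5 (SE 0.74). Without VHL-KO replicate 4 it was 0.16 (SE 0.33), with the largest error of the splicing factor genes in that fit.

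The remaining SR genes, Srsf7, Srsf10 and Srsf11, had log2 fold changes of 0.41, 0.62 and 0.41, which became -0.024, 0.11 and -0.068 without VHL-KO replicate 4.

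Hnrnpa2b1, which binds RNA in the nucleus and takes part in its transport, had the highest level per length of all 42 genes, at 226 CPM per kb. Its values were 451, 443 and 60.9 CPM under the VHL-KO label and 476, 443 and 474 CPM under the VHL-KO;SETD2-KO label. Apart from VHL-KO replicate 4 the libraries lay between 443 and 476 CPM. For Hnrnpa2b1 the log2 fold change was 0.54 (SE 0.69, adjusted p = 0.796, edgeR) with that library and 0.051 (SE 0.16) without it. Hnrnph1, a regulator of exons with runs of G, came next within the Hnrnp family at 90.8 CPM per kb. It was the gene most reduced in VHL-KO replicate 4, with 16.3 CPM there against 216 and 292 CPM in VHL-KO replicates 1 and 2 and 264, 205 and 329 CPM under the VHL-KO;SETD2-KO label.

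Hnrnph3, a paralogue of Hnrnph1, had the largest positive fold change among the Hnrnp genes. It had 25.0, 30.0 and 6.64 CPM in VHL-KO replicates 1, 2 and 4 and 38.1, 43.6 and 37.6 CPM in VHL-KO;SETD2-KO replicates 2, 3 and 4. The groups did not overlap, with or without VHL-KO replicate 4. The log2 fold change was 0.95 (SE 0.55, adjusted p = 0.626, edgeR). Without that library it was 0.53 with a smaller error (SE 0.15, unadjusted p = 0.0128, adjusted p = 0.153, edgeR), a fold change of 1.44 that is below the 1.5-fold limit. With an offset for GC content and transcript length, added after the data were seen, it was the 1 gene of 42 called higher (log2 fold change 0.78, unadjusted p = 0.0127, adjusted p = 0.229, edgeR, background 5.80%). In the fit without VHL-KO replicate 4, 3 of the 42 genes, Hnrnph3, Ptbp3 and Sf3b3, had an unadjusted p under 0.05 at any fold (7.14%, background 20.5%).

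Hnrnpa3 and Hnrnpm were the other Hnrnp genes with groups that did not overlap and a fold change of at least 1.5. Hnrnpa3, close in sequence to Hnrnpa1, had 45.8, 45.8 and 5.42 CPM against 59.5, 56.2 and 50.7 CPM. Its log2 fold change was 0.78 (SE 0.70) and 0.27 (SE 0.13) without VHL-KO replicate 4. Hnrnpm had 85.7, 90.8 and 20.3 CPM against 104, 108 and 104 CPM, with log2 fold changes of 0.68 (SE 0.57) and 0.25 (SE 0.13). In both genes the libraries of a group other than VHL-KO replicate 4 lay close together and the VHL-KO;SETD2-KO values were the higher ones, by a margin that did not pass the test.

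Hnrnpa0, encoded by a gene with a single coding exon, was one of the few Hnrnp genes for which VHL-KO replicate 4 was close to the rest of its group. It had 71.9, 66.8 and 64.6 CPM under the VHL-KO label and 104, 77.4 and 86.8 CPM in the VHL-KO;SETD2-KO group. Its log2 fold change was 0.40 (SE 0.36, adjusted p = 0.723, edgeR) and 0.36 (SE 0.17, adjusted p = 0.287, edgeR) without that library, so that for this gene the value hardly moved. Hnrnpul2 had 188, 178 and 51.2 CPM against 206, 199 and 199 CPM.

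Hnrnpul1, related to the scaffold protein gene Hnrnpu, had the smallest fold change of the family at 0.094 (SE 0.36), with 80.1, 80.7 and 64.3 CPM against 82.8, 72.4 and 85.1 CPM. Hnrnpl, which binds CA repeats, was the only Hnrnp gene within the range of the other libraries in VHL-KO replicate 4, with 94.7, 87.6 and 108 CPM against 113, 104 and 113 CPM. For the other 11 Hnrnp genes the log2 fold change ran from 0.21 for Hnrnpab to 0.73 for Hnrnpa1, and every one of them was smaller without VHL-KO replicate 4.

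Among the branch point factors, Sf3b1, the largest subunit of SF3B and a gene recurrently mutated in blood cancers, had the largest positive fold change. It had 223, 260 and 29.3 CPM in VHL-KO replicates 1, 2 and 4 and 284, 225 and 273 CPM in VHL-KO;SETD2-KO replicates 2, 3 and 4. The log2 fold change of 0.61 (SE 0.71, adjusted p = 0.777, edgeR) was 0.11 (SE 0.18) without VHL-KO replicate 4. Sf3b2, which contacts the RNA near the branch point, had 116, 123 and 238 CPM against 133, 133 and 131 CPM. Here VHL-KO replicate 4 was the high library, in contrast to Sf3b1. As a mean over all libraries Sf3b2 had the highest level of the family per length, at 45.2 CPM per kb. This rank rested on VHL-KO replicate 4, with 73.8 CPM per kb for Sf3b2 and 4.73 for Sf3b1. In VHL-KO replicates 1 and 2 the mean was 38.97 CPM per kb for Sf3b1 and 37.17 for Sf3b2. Sf3b1 also had the higher mean per length in the VHL-KO;SETD2-KO group.

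Sf3b5, the smallest subunit of SF3B, had the most negative fold change of the 42 genes. It had 16.0, 17.6 and 108 CPM under the VHL-KO label and 19.6, 19.7 and 17.0 CPM under the VHL-KO;SETD2-KO label. A single library was high, and the groups overlapped. Its log2 fold change was -1.33 (SE 0.75, adjusted p = 0.625, edgeR) with that library and 0.16 (SE 0.15) without it, the largest move among the 42 genes. With VHL-KO replicate 1 or 2 left out instead, Sf3b5 was called lower at an unadjusted p of 0.0431 and 0.0486 (log2 fold changes -1.72 and -1.70, adjusted p = 0.576 and 0.497, edgeR), and it was then the 1 gene called of 42 (background 6.49% and 7.11%).

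Sf3a2 and Sf3b4 showed the same pattern, with VHL-KO replicate 4 as the high library. Sf3a2, a subunit of SF3A with a zinc finger, had 13.6, 14.8 and 41.2 CPM against 16.9, 16.3 and 15.7 CPM, and its log2 fold change went from -0.51 (SE 0.51) to 0.20 (SE 0.15). Sf3b4, which carries RNA recognition motifs, had 20.7, 17.8 and 46.3 CPM against 20.8, 14.8 and 17.8 CPM, with values of -0.67 (SE 0.47) and -0.12 (SE 0.20).

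Sf3b3 had 50.3, 58.0 and 78.0 CPM under the VHL-KO label and 71.9, 64.0 and 69.9 CPM under the VHL-KO;SETD2-KO label. Without VHL-KO replicate 4 its log2 fold change was 0.34 (SE 0.14, unadjusted p = 0.0468, adjusted p = 0.238, edgeR), against 0.14 (SE 0.37) with it. Sf3b6, which contacts the branch point adenosine, was the gene with lower values throughout the VHL-KO;SETD2-KO group, at 36.7, 36.1 and 35.3 CPM against 31.8, 34.8 and 30.5 CPM. The gap between the groups was small, with a log2 fold change of -0.15 (SE 0.34, adjusted p = 0.876, edgeR) and -0.17 (SE 0.13) without VHL-KO replicate 4. Sf3a1 and Sf3a3 had log2 fold changes of -0.26 and 0.39.

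The PTB genes were considered together because their products bind similar sequences. Ptbp1, the form of most tissues, had 149, 170 and 337 CPM in VHL-KO replicates 1, 2 and 4 and 165, 119 and 170 CPM in VHL-KO;SETD2-KO replicates 2, 3 and 4. The log2 fold change was -0.53 (SE 0.47, adjusted p = 0.717, edgeR) and -0.076 (SE 0.21) without VHL-KO replicate 4. Ptbp2, the paralogue of neurons, had 22.3, 22.0 and 3.83 CPM against 26.6, 21.5 and 23.8 CPM, a log2 fold change of 0.57 (SE 0.62) and of 0.11 (SE 0.15) without that library.

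Ptbp3, a paralogue known from blood cells, had the largest positive fold change of all 42 genes. It had 114, 130 and 18.7 CPM under the VHL-KO label and 194, 139 and 179 CPM under the VHL-KO;SETD2-KO label. Here the groups did not overlap, although VHL-KO replicate 2 and VHL-KO;SETD2-KO replicate 3 were close. For Ptbp3 the log2 fold change was 0.96 (SE 0.67, adjusted p = 0.656, edgeR), and 0.48 (SE 0.19, unadjusted p = 0.0481, adjusted p = 0.241, edgeR) without VHL-KO replicate 4. Per length the mean levels were 58.4 CPM per kb for Ptbp1, 18.9 for Ptbp3 and 5.29 for Ptbp2. The same order held in VHL-KO replicate 4 alone, at 106, 2.73 and 1.02 CPM per kb.

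A ratio of 2 genes within a library does not depend on library size, and 8 ratios were compared by exact permutation tests (two-sided), with p-values adjusted over the 8. The ratio of Ptbp3 to Ptbp1 counts was 0.768, 0.766 and 0.0556 in VHL-KO replicates 1, 2 and 4 and 1.17, 1.17 and 1.05 in VHL-KO;SETD2-KO replicates 2, 3 and 4. The groups did not overlap, and the VHL-KO;SETD2-KO libraries were higher by 1.82 on the log2 scale (exact permutation p = 0.1, the smallest that 3 against 3 allows, adjusted p = 0.8). Without VHL-KO replicate 4 the difference was 0.56 (exact permutation p = 0.1, also the smallest possible, adjusted p = 0.4). The plot of the PTB genes by library shows that Ptbp3 and not Ptbp1 separated the groups.

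**Figure D4:**
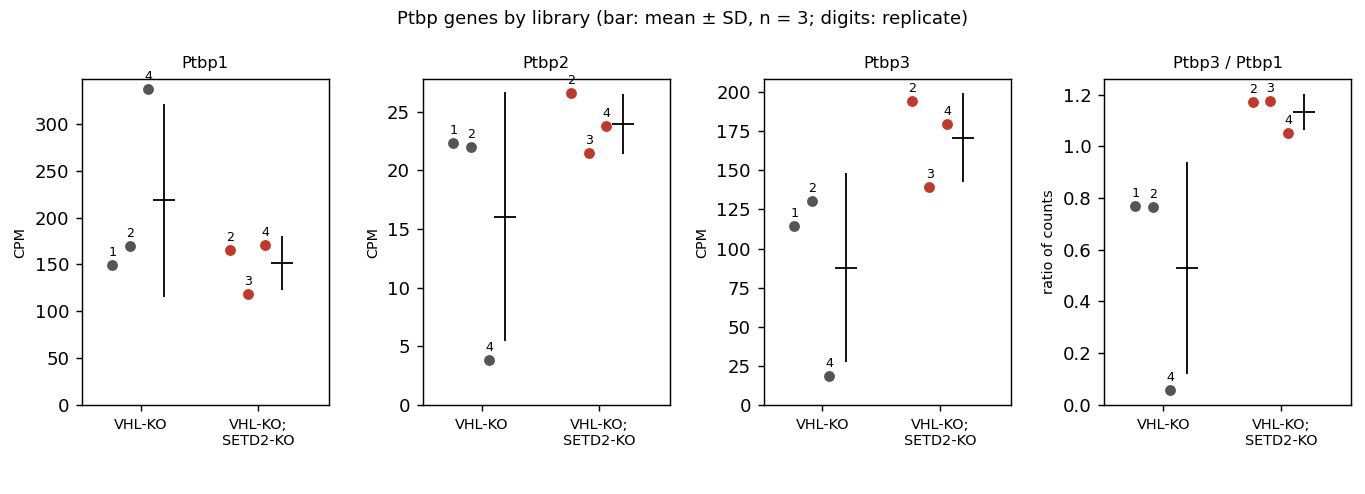
CPM of Ptbp1, Ptbp2 and Ptbp3 and the ratio of Ptbp3 to Ptbp1 counts in each library, grey for VHL-KO and red for VHL-KO;SETD2-KO, with the replicate number above each point and a bar for the mean ± SD (n = 3). In the ratio the VHL-KO;SETD2-KO libraries lie between 1.05 and 1.17, above VHL-KO replicates 1 and 2 at 0.768 and 0.766 and replicate 4 at 0.0556.

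The ratio of Hnrnpll to Hnrnpl was the other one in which the 5 libraries apart from VHL-KO replicate 4 separated. It was 0.364, 0.381 and 0.0613 under the VHL-KO label and 0.304, 0.300 and 0.312 under the VHL-KO;SETD2-KO label. With that library the difference was 0.58 on the log2 scale (exact permutation p = 1), and without it -0.29 (exact permutation p = 0.1, adjusted p = 0.4). The ratio of Sf3b1 to Sf3b5 was 14.0, 14.8 and 0.271 against 14.5, 11.5 and 16.1, so that it was below 1 in VHL-KO replicate 4 and above 11 in every other library. The other 5 ratios (Ptbp2 to Ptbp1, Hnrnph2 to Hnrnph1, Hnrnpa1 to Hnrnpa2b1, Srsf3 to Srsf1 and Hnrnpd to Hnrnpdl) overlapped between the groups without VHL-KO replicate 4, with exact permutation p-values of 0.4 to 1.

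Further genes of the splicing machinery were taken from 7 lists with 119 genes, of which 102 were tested. Of these, 3 were called higher and 1 lower at the unadjusted threshold (background 2.65% and 4.68%), none at an adjusted p, and in this fit all 4 belonged to the list of regulators restricted to certain cell types (20 of 30 tested). Esrp1 and Esrp2 encode epithelial splicing regulators and moved in opposite directions. Esrp1 had 2.55, 3.61 and 2.99 CPM under the VHL-KO label and 4.73, 16.3 and 5.46 CPM under the VHL-KO;SETD2-KO label (log2 fold change 1.54, SE 0.58, unadjusted p = 0.0298, adjusted p = 0.625, edgeR). Esrp2 had 34.6, 37.4 and 48.3 CPM against 16.6, 20.2 and 21.01 CPM (log2 fold change -1.06, SE 0.37, unadjusted p = 0.0197, adjusted p = 0.625, edgeR). Without VHL-KO replicate 4 Esrp2 was at -0.91 (unadjusted p = 0.00114, adjusted p = 0.0785, edgeR) and Esrp1 at 1.53 (unadjusted p = 0.0529, adjusted p = 0.25, edgeR), so that the call of Esrp1 was lost. In that fit 5 genes of the 7 lists were called higher and 2 lower (103 tested, background 8.29% and 7.14%, none at an adjusted p). They came from 4 lists and were, beside Srrm4 and Esrp2, the Sm-like gene Lsm6 (log2 fold change 0.61), Luc7l3 of the U1 particle (0.67), the SR-related Tra2a (0.61), the neuronal regulator Nova2 (1.44) and, lower, Rbm47 (-0.69).

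The proximal tubule marker sum was lower in the same libraries in which Esrp2 was lower. VHL-KO;SETD2-KO replicate 3, the library with the highest Esrp1, had 214 CPM of collecting duct markers. The others of its group had 75.8 and 81.5 CPM. Thick limb and distal tubule markers summed to 4334 CPM in this replicate 3 and to 1579 and 1878 CPM in the others. VHL-KO replicate 4, with 2.99 CPM of Esrp1, had the highest sum of both lists, 443 and 4780 CPM. The part of these cell types in the levels of Esrp1 and Esrp2 was not tested. Srrm4, which promotes microexons in neurons, had 1.09, 1.39 and 1.31 CPM against 3.24, 2.48 and 3.64 CPM (log2 fold change 1.31, SE 0.47, unadjusted p = 0.0248, edgeR). Its reads were few, with 14 to 61 counts over the libraries. Raver2, which encodes a partner of PTB proteins, had 4.67, 10.3 and 3.55 CPM against 24.7, 8.84 and 18.1 CPM (log2 fold change 1.48, SE 0.57, unadjusted p = 0.0318, edgeR), and was high in VHL-KO;SETD2-KO replicates 2 and 4, the libraries with the highest podocyte and endothelial marker sums. Whether these cell types had a part in the level of Raver2 was not tested, and the match was seen after the values were known. Without VHL-KO replicate 4 Srrm4 was still called (1.34, unadjusted p = 0.0124, adjusted p = 0.151, edgeR) and Raver2 was not (1.22, unadjusted p = 0.0619, adjusted p = 0.267, edgeR).

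The 3 readers of lysine 36 trimethylation that act in splicing had positive fold changes that did not pass the test. Morf4l1 had 52.8, 52.0 and 16.0 CPM against 66.3, 59.0 and 58.1 CPM, with a log2 fold change of 0.60 (SE 0.51, adjusted p = 0.702, edgeR) and of 0.22 without VHL-KO replicate 4. Psip1 and Zmynd11 had 0.78 and 0.50, and 0.28 and 0.064 without it. In the other lists the median log2 fold change was 0.049 for 13 Sm and LSm genes, -0.19 for 23 genes of the U1, U2 and U5 particles, 0.017 for 15 genes of the Prp19 complex and helicases, 0.49 for 19 SR-related genes and their kinases, and 0.027 for 9 genes of nonsense-mediated decay, against 0.0095 over all genes tested. Without VHL-KO replicate 4 these medians were 0.11, 0.065 (24 genes tested), 0.11, 0.084 and 0.036, against 0.036 over all genes tested, and that of the cell-type-restricted regulators went from 0.63 to 0.26.

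Of the 42 genes, 17 share exon bases with a gene on the opposite strand in GENCODE M21 and 4 with a gene on the same strand. Whether the counting used strand is not given in the sources used here, so reads of Srsf4 and Gm12992 (1532 shared bases), Hnrnpab and Phykpl (809), Hnrnpu and Cox20 (804) or Srsf2 and Mettl23 (460) may not be told apart. Hnrnpm shares 1169 exon bases with March2 on its own strand. Several of the genes, Hnrnpa1 and Hnrnpa3 among them, have processed copies elsewhere in the genome, and how reads matching more than 1 copy were counted is likewise not given. The level of Hnrnpr per length was low, at 2.17 CPM per kb, beside a longest annotated transcript of 21452 bases.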

How the data were processed

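Total RNA of PTECs from 6 mice was sequenced, 3 libraries for each label. The authors deposited the number of reads assigned to each gene symbol in each library, as raw counts without normalisation. The submitters' processing notes name HISAT2 2.0.4 and GRCm38, while the counting program, the annotation and the use of strand are not given in the sources used here. Every row of the table had a gene name and 0 per-sample columns were left unused. Totals were 11168552 to 17883466 counts, and the floor of 3 counts covers counting error only. That the libraries come from separate mice was taken from a figure legend of the study, which gives 3 mice per group.

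From the deposited counts, TMM factors, CPM and a quasi-likelihood test with the label as the only factor were computed in edgeR 4.0.16 (R 4.3.3) on the 14611 of 46095 genes kept by filterByExpr. P-values were adjusted over all genes tested by the Benjamini-Hochberg method, and a call needed p under 0.05 and a change of 1.5-fold or more. A prior count of 2 entered log2 CPM, and levels per kb were divided by the longest annotated transcript. The fits were tested on simulated data. Annotation, GC content and sequences came from GENCODE M21, in which all 42 genes were found, and 1 further sequence is not reported here.

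The genes, the 7 pathway lists, the 10 marker lists and the 8 ratios were chosen with earlier results of these data known. Genes were named where called, where the groups did not overlap at a fold change of at least 1.5, where they had the largest rise, largest fall or highest level per kb of a family, where they were in a ratio or were Ptbp genes, and for the 4 that moved most without VHL-KO replicate 4. Other genes were named for completeness after their values were seen. Alternatives were RLE size factors, DESeq2 1.42.0, limma-voom (limma 3.58.1), no filter, library sizes without mitochondrial genes, a replicate block, leaving out each library and a fold change of at least 2. An offset for GC content and length, which covered 87.7% of the genes tested, and a crossed replicate block were added after seeing the data. Mitochondrial genes carry upper-case names such as COX1 in the table and were taken by name.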

Additional observations from a re-analysis of the deposited data

How the results depend on the processing

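No splicing factor gene passed an adjusted p under 0.05 in any alternative run, where the lowest adjusted p was 0.153. At the unadjusted threshold 1 gene was called higher with the GC and length offset (Hnrnph3, log2 fold change 0.78, unadjusted p = 0.0127, adjusted p = 0.229, edgeR), and 0 to 1 genes were called lower when each library was left out, the 1 being Sf3b5 without VHL-KO replicate 1 or 2. The number of genes whose groups did not overlap ranged from 7 to 22 higher and from 0 to 1 lower with each library left out, and was 0 lower with library sizes without mitochondrial genes. Replicate numbers 2 and 4 occur under both labels, with correlations of 0.16 and -0.32 between same-numbered libraries. The labels do not say whether a shared number marks a shared litter or batch, and these correlations cannot decide it. The replicate block moved the median log2 fold change to 1.19 and the crossed replicate block to 1.19, each with 0 calls. It was 0.75 with limma-voom, 0.26 with the GC and length offset, and 0.11 to 0.75 with each library left out. With the replicate block and the crossed replicate block Srsf4 was at -0.12, and with RLE size factors and DESeq2 at -0.036. With the GC and length offset Sf3a2 reversed to 0.020, Sf3b3 to -0.21, Srsf6 to -0.095, Srsf9 to 0.30, Hnrnpc to -0.32, Hnrnpr to -0.12 and Hnrnpu to -0.070. Leaving out each library gave log2 fold changes from -0.40 to 0.080 for Sf3a1, -0.76 to 0.20 for Sf3a2, -0.43 to 0.14 for Sf3b2, -1.72 to 0.16 for Sf3b5, -0.068 to 0.76 for Srsf11, -0.10 to 0.18 for Srsf4, -0.024 to 0.96 for Srsf7, -0.54 to 0.18 for Srsf9, -0.071 to 0.68 for Hnrnpf, -0.022 to 0.75 for Hnrnpll and -0.0088 to 0.17 for Hnrnpul1. The log2 difference of the ratios ranged from -0.29 to 1.03 for Hnrnpll to Hnrnpl, -0.67 to 0.11 for Hnrnph2 to Hnrnph1, -0.065 to 0.27 for Hnrnpa1 to Hnrnpa2b1, -0.038 to 0.34 for Srsf3 to Srsf1 and -0.050 to 2.84 for Sf3b1 to Sf3b5. The cause of these moves was not tested beyond the libraries left out. Depth limits Srsf1, with 8 to 76 counts, more than the other genes named.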
